A study of Mus musculus with 8 samples.

Results

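The amino acid transporters examined here are the 43 gene symbols, of 26608 in the deposited tables, whose names place them in the solute carrier families Slc1, Slc3, Slc7, Slc36, Slc38 or Slc43. Of these, 42 are named as transporter genes or transporter subunits, while Slc7a6os matches by its name alone: it is a neighbour of Slc7a6 and not a carrier. At least 1 read was found for 39 of the 43 symbols in some library, and 29 had enough reads to be tested. The tissue came from FVB mouse embryos at embryonic day 8.5, all carried by diabetic mothers, and was cut by laser from frozen sections. The protrusion group has 4 libraries of outgrowths dissected from the open neural plate, of which protrusion 1 is labelled separated and protrusions 2, 3 and 4 attached. The open neural tube group has 4 libraries, numbered 9, 10, 13 and 14 and also called open tubes here, of normally shaped open tube taken from the stretch in front of the first closure point (closure site 1). Embryos of non-diabetic mothers are not analysed here, so every value below was measured under maternal diabetes.

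Amino acids cross membranes through carriers with overlapping preferences. Sodium-coupled carriers of the Slc38 and Slc1 families accumulate glutamine, alanine, serine or glutamate inside cells. Light chains of the Slc7 family work as exchangers and reach the cell surface bound to a heavy chain of the Slc3 family, the pairing of Slc3a2 with Slc7a5 being the main route for leucine and other large neutral amino acids. Carriers on lysosomes, such as Slc38a9 and Slc36a1, report amino acid supply to the growth kinase complex mTORC1. In the early embryo these proteins supply a tissue that grows and divides quickly.

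Expression was measured by SAGE, in which each transcript is read through a short tag that starts at a restriction site towards its 3′ end, so that a transcript adds about the same number of tags whatever its length. Levels are given as CPM (counts per 1000000), the tags of a gene scaled to a common library total. The site that anchors the tag in this kind of kit is CATG. The last CATG of the main transcript with the bases that follow it, read from GENCODE M21 transcripts on GRCm38, is printed here for the members on which the results turn, because these are the sequences by which such a gene would be counted. The site is in capitals.
Slc38a8: CATGcttcatataaacctgaacgtgc
Slc3a2: CATGcactgtcttcctcacctgacct
Slc7a5: CATGtcactgccctgaaagacacccc
Slc38a1: CATGtagcacaccactattttactaa
Slc7a10: CATGttgtttattgagaagggggttg
Slc7a7: CATGtttcagacttcataaatggatg

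The tag of Slc38a8 lies on the minus strand at chr8:119479692-119479717, in the 3′ UTR within the last exon, and starts 116 bases before the transcript's end. That of Slc3a2 (chr19:8707976-8708001, minus strand) lies in the coding part of the last exon. Those of Slc7a5 (chr8:121881371-121881396, minus strand), Slc38a1 (chr15:96571621-96571646, minus strand), Slc7a10 (chr7:35200887-35200912, plus strand) and Slc7a7 (chr14:54369612-54369637, minus strand) lie in 3′ UTRs. A full tag of 26 bases could be read for 42 of the 43 members, and for 39 of them no transcript of another gene held it on either strand. The other 3 are Slc7a10, Slc7a7 and Slc3a1, whose tags lie within transcripts of the opposite strand, of Lrp3, Oxa1l and Prepl. Slc7a5 itself overlaps Gm20388 on the opposite strand, and the last CATG of Slc38a2 lies 13 bases from its transcript's end, too near for a full tag. The sources used here do not state any use of strand in the counting, so counts of these 3 members are uncertain. The rule by which the deposited counts were assigned to genes is not given either, so the printed tags describe the transcripts and not the reads that were counted.

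Library totals ranged from 6112477 to 11430602 tags in protrusions and from 5668054 to 16655583 in open neural tube, so that 3 tags stand for 0.180 to 0.529 CPM. With all libraries thinned to 5668054 tags, 14401 to 15536 genes had a tag in the protrusions and 9920 to 11245 in the open neural tubes. Summed markers of the primitive streak and axial progenitors stood at 284 to 1256 CPM in the protrusions, against 5.23 to 47.5 CPM in open tubes. Of the list, 2 of 4 tested markers were past the threshold (Cdx1 and Cdx2), against 0.607% of all genes tested. Cdx4, Nkx1-2, Mixl1, Eomes and Evx1, none of them tested, were at 0 in all 4 open neural tubes. Eomes and Evx1 were sparse in protrusions too, at up to 0.700 and 0.574 CPM, so their zeros carry little. Markers of paraxial mesoderm summed to 642 to 1459 CPM in protrusions against 112 to 666 CPM in open neural tube, where open neural tube 13 was highest. All 8 tested had a log2 fold change above 0. Tbx6 and Dll3 were past the threshold, as were 0.607% of all genes tested. The groups overlapped for Meox1 and Foxc2. Pax1, not tested, stood at 0.0875 to 0.654 CPM in protrusions, against 8.29, 0.176, 246 and 13.7 CPM in open neural tubes 9, 10, 13 and 14. Of 9 tested neural progenitor markers, edgeR called 0, with 3 at an unadjusted p under 0.05, against 15.3% of all genes tested. In 4 the log2 fold change was above 0. For the attached protrusions against open neural tube, Sox1 and Zic1 were past the threshold. Sox1 stood at or below 6.85 CPM in attached protrusions and at 108 CPM in the separated one, against 15.3 to 99.6 CPM in open tubes. Sox3 went the other way, at 23.9 to 50.7, 0 and 0 to 3.18 CPM in the same order. Neural progenitor markers summed to 386 to 1067 CPM in protrusions and to 119 to 1323 CPM in open neural tube, the lowest value being that of open neural tube 13. The same library held the highest sums of endothelial markers (4.37 to 41.7 CPM in protrusions, 10.9 to 208 CPM in open neural tube), visceral endoderm markers (2.52 to 5.74 CPM in protrusions, 8.69 to 40.5 CPM in open neural tube) and trophoblast markers (0.717 to 4.93 CPM in protrusions, 0 to 79.4 CPM in open neural tube). Hand1 alone made up 69.6 CPM of the 79.4 CPM of trophoblast markers. The endothelial receptors Kdr and Flt1 were at 0 in all open tubes and did not exceed 0.327 and 0.491 CPM in protrusions. They therefore tell nothing about a difference between the groups. Of the 4 tested endothelial markers, 0 had a log2 fold change above 0, and edgeR called 0. Embryonic erythroid markers summed to 2.29 to 58.7 CPM in the protrusions, against 10.8 to 1010.2 CPM in open tubes, and gut and notochord markers to 27.8 to 151 CPM in protrusions against 41.9 to 58.4 CPM in open tubes. Surface ectoderm markers summed to 147 to 1052 CPM in protrusions, highest in protrusion 3, and to 60.9 to 326 CPM in open neural tube. These differences in library content run along with every comparison below, and their part in any of them was not tested. In bulk tissue, fewer cells of a type and less RNA per cell cannot be told apart. Separate embryos behind the libraries are not stated, and protrusions 1 and 2 have titles that begin alike. The p-values therefore measure spread between libraries, which may be technical.

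The comparison of protrusions with normally shaped open neural tube asked which transporters differ between them. Summed over all members, the groups overlapped, at 803 ± 203 CPM in the protrusions, against 733 ± 41.5 CPM in open tubes (SD, n = 4 per group). The difference between these means is smaller than the spread among the protrusions, which ran from 577 CPM in the separated protrusion to 1070 CPM in protrusion 3. A single member, Slc38a8, passed an adjusted p of 0.05 and rose in protrusions, while 0 fell, against 0.326% of all genes tested that passed as lower. That is 1 of 29 tested members, where 0.607% of all 11036 genes tested passed in either direction and 0.281% passed as higher. DESeq2 and limma-voom each called 1 member as well, again Slc38a8, and limma-voom with sample weights 0. Of all genes, DESeq2 called 7.39% of the 10757 to which it gave an adjusted p, limma-voom 3.35% and limma-voom with sample weights 1.76%. The 1 of 29 members lies below the share of DESeq2 and near that of limma-voom. A count of 1 allows no finer comparison. The median log2 fold change was −0.11 over the 29 members and 0.08 over all genes tested. At an unadjusted p under 0.05 stood 2 members, Slc38a8 and Slc7a10, against 15.3% of all genes tested. In 2 tested members, Slc38a8 and Slc7a6os, every protrusion lay above every open neural tube, against 8.84% of all genes tested. In 0 members did every protrusion lie below, against 4.55%.

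**Figure D1:**
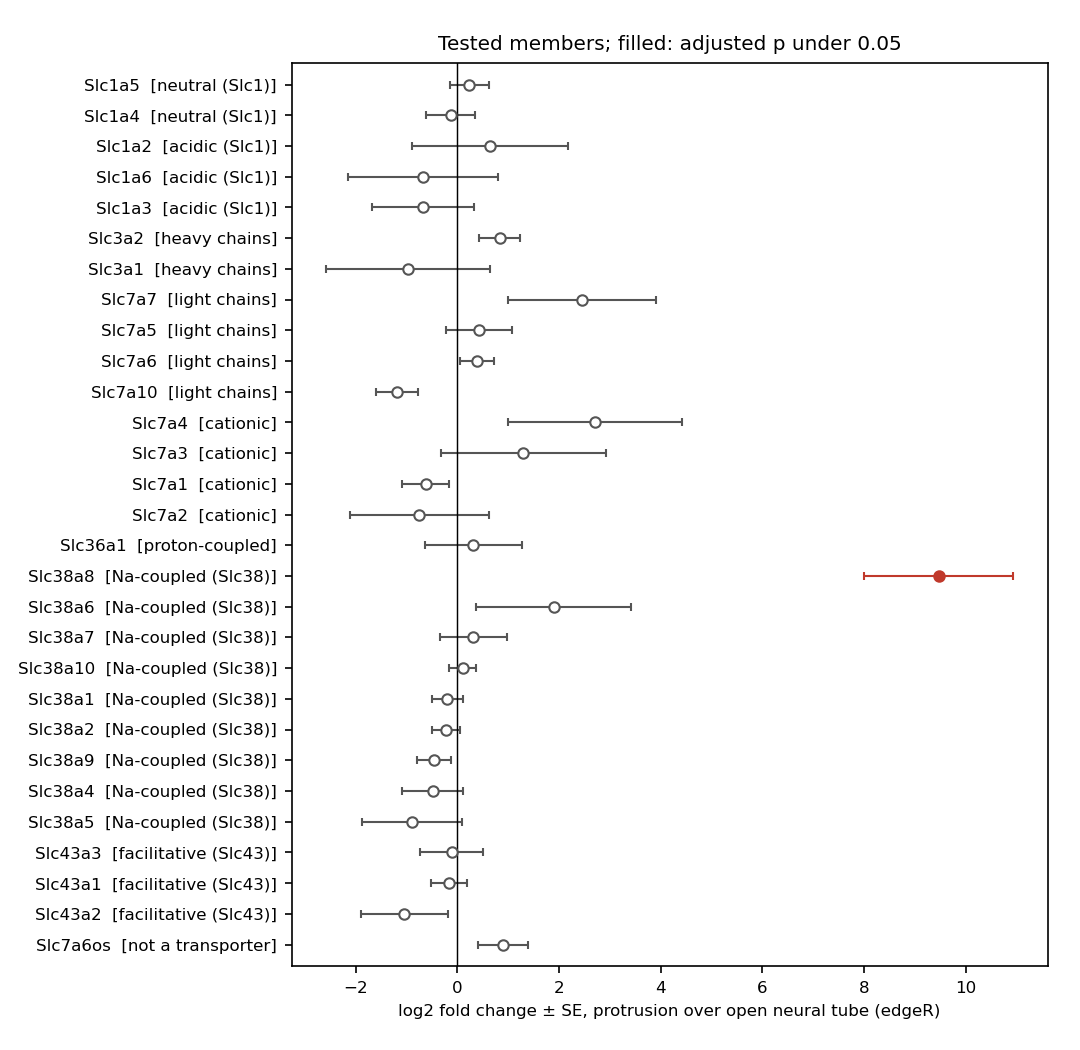
Log2 fold change ± SE from edgeR of the 29 tested members, protrusion over open neural tube (n = 4 each), ordered by role. The filled point, Slc38a8 at 9.47, is the member past an adjusted p of 0.05, and the open points lie between −1.18 and 2.71.

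Slc38a8 belongs to the sodium-coupled neutral carriers and transports glutamine and related amino acids. In people its gene is known for its part in the development of the fovea of the retina. Slc38a8 stood at 4.42 CPM in protrusion 1, 9.46 CPM in protrusion 2, 96.5 CPM in protrusion 3 and 18.9 CPM in protrusion 4, against 0 CPM in open neural tubes 9, 13 and 14 and 0.176 CPM, a single tag, in open neural tube 10. All 4 protrusions were above all 4 open neural tubes, and protrusion 3 was far above the other protrusions. In tags, the protrusions held 27, 66, 1103 and 157, of 1353 in all. The log2 fold change was 9.47 ± 1.46 (SE; edgeR adjusted p = 0.0320), a size that depends on the prior count because the open neural tubes are almost empty. Pooled over the libraries of each group, the level was 1682 times higher in protrusions, with an exact 95% interval of 301 to 66492 that covers counting error only. Without protrusion 3 the adjusted p in edgeR was 0.131 with a log2 fold change of 7.88, and the call also ended without protrusion 4, without any of the 4 open neural tubes and with sample weights. Over all alternatives its adjusted p ran from 2.15e-09 with DESeq2 to 0.131.

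Slc38a8 passed the low-count filter through its tags in protrusions, and fewer genes of any kind were detected in every open neural tube. No annotated gene overlaps it. Its neighbour on the chromosome, Necab2, which encodes a calcium-binding protein of neurons, stood at 4.25, 39.3, 112 and 28.1 CPM in protrusions 1 to 4, against 5.33, 11.1, 1.68 and 0.955 CPM in open neural tubes 9, 10, 13 and 14 (log2 fold change 3.16 ± 0.97, SE; edgeR adjusted p = 0.138; chosen after its values were seen). The neighbour on the other side, Mbtps1, a protease of the Golgi, stood at 293 to 375 CPM in the protrusions, against 279.6 to 394 CPM in open tubes, and was likewise chosen after its values were seen. Protrusion 3 was thus the highest library for Slc38a8 and for Necab2, and for Mbtps1 the groups overlapped. Protrusion 3 also had the highest summed surface ectoderm markers, 1052 CPM, of which Cdh1, the epithelial cadherin, made up 871 CPM, against 147 to 163 CPM for the list in the other protrusions. The part of these markers in the level of Slc38a8 was not tested. In that list edgeR called 0 of 7 tested markers, with 1 at an unadjusted p under 0.05, against 15.3% of all genes tested. DESeq2, limma-voom and limma-voom with sample weights each called 0.

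**Figure D2:**
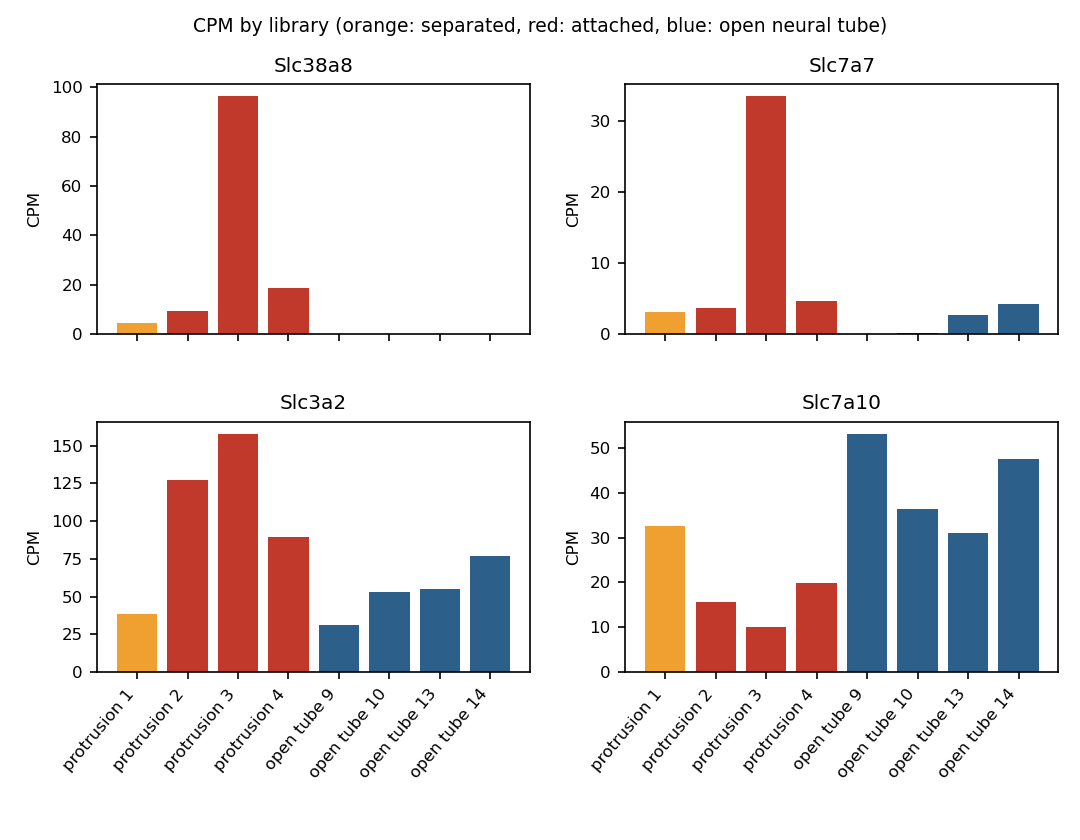
CPM by library for Slc38a8, Slc7a7, Slc3a2 and Slc7a10, with the separated protrusion in orange, the attached protrusions in red and the open neural tubes in blue. Slc38a8 and Slc7a7 peak in protrusion 3, Slc3a2 is highest in the 3 attached protrusions, and Slc7a10 is highest in open neural tube 9.

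The sodium-coupled neutral carriers had a larger summed level than any other role group in both groups of libraries, and Slc38a8 was the single one of 9 tested that passed the threshold. The family summed to 416 ± 121 CPM in the protrusions, against 408 ± 34.8 CPM in open tubes (SD, n = 4 per group). Slc38a1, a glutamine carrier of neural and other dividing cells and the most abundant member of all, stood at 70.3, 163, 193 and 156 CPM in protrusions 1 to 4, against 186, 122, 125 and 188 CPM in open neural tubes 9, 10, 13 and 14. The separated protrusion was the lowest of all 8 libraries, and the other 7 overlapped. Slc38a2, the carrier of this family known to be induced when amino acids run short, stood at 53.7, 65.2, 88.9 and 80.6 CPM in protrusions 1 to 4, against 47.3, 118, 67.6 and 85.7 CPM in open neural tubes 9, 10, 13 and 14. Slc38a10 stood at 64.8, 62.7, 74.8 and 94.3 CPM in protrusions 1 to 4, against 69.3, 87.9, 61.6 and 42.0 CPM in open neural tubes 9, 10, 13 and 14. The groups overlapped for both genes. The log2 fold changes were −0.20 ± 0.30 for Slc38a1, −0.23 ± 0.28 for Slc38a2 and 0.10 ± 0.26 for Slc38a10 (SE; edgeR adjusted p = 0.828, 0.782 and 0.910), and each turned in sign when a library was left out.

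Slc38a4, an imprinted carrier of neutral and cationic amino acids that is abundant in liver and placenta, varied widely among the open neural tubes. It stood at 30.4, 45.5, 61.6 and 46.3 CPM in protrusions 1 to 4, against 15.1, 34.2, 152 and 36.7 CPM in open neural tubes 9, 10, 13 and 14. Open neural tube 13 was the highest library, the one that also held the highest summed endothelial, visceral endoderm and trophoblast markers. Among the open tubes it also had the highest paraxial mesoderm sum, 666 CPM, and the lowest neural progenitor sum, 119 CPM. Of its trophoblast sum of 79.4 CPM, Hand1 made up 69.6 CPM and Plac1 9.73 CPM. The other markers of that list were at 0 CPM in this library. The part of any of these markers in the level of Slc38a4 was not tested. The log2 fold change was −0.49 ± 0.61 (SE; edgeR adjusted p = 0.780) with all libraries and 0.64 (adjusted p = 0.396) without open neural tube 13, with adjusted p from 0.321 to 0.921 over all settings. Of the carriers on lysosomes, Slc38a9, the arginine sensor of mTORC1, stood at 22.2 ± 2.15 CPM in the protrusions, against 28.7 ± 7.78 CPM in open tubes, and Slc38a7, which exports glutamine and asparagine, at 13.4 ± 2.24 CPM in the protrusions and 9.95 ± 7.35 CPM in open tubes (SD, n = 4 per group). Slc38a5, a carrier of glutamine and histidine, stood at 2.72 to 6.87 CPM in the protrusions, against 1.67 to 4.26 CPM in open neural tubes 9, 13 and 14 and 28.4 CPM in open neural tube 10. Slc38a6 ranged from 1.47 to 7.35 CPM in protrusions and from 0 to 2.64 CPM in open neural tube.

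**Figure D3:**
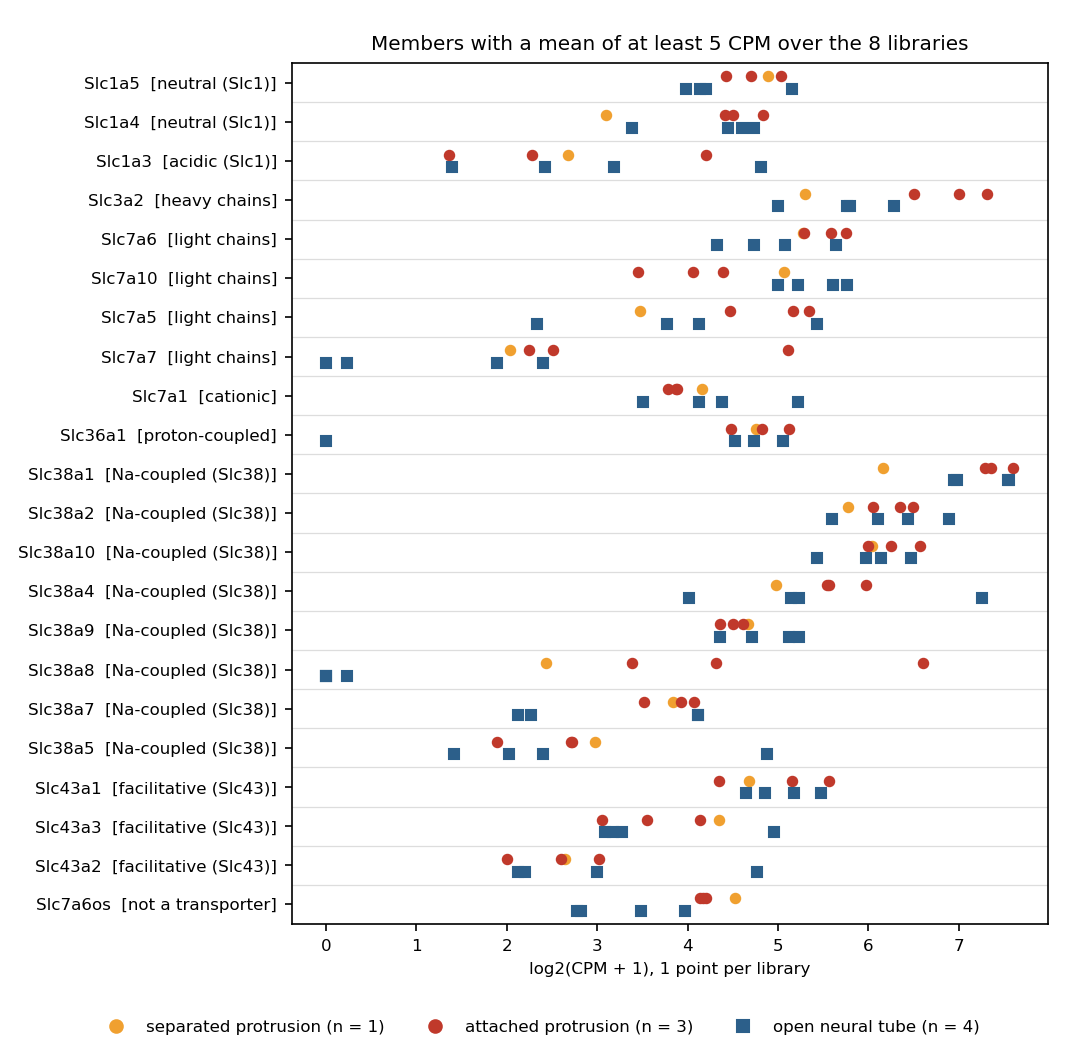
Levels of the 22 members with a mean of at least 5 CPM, as log2(CPM + 1), with 1 point per library. Orange circles are the separated protrusion, red circles the attached protrusions and blue squares the open neural tubes. Slc38a8 and Slc7a6os are the rows in which all circles lie to the right of all squares.

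Among the heavy chains, Slc3a2, which carries the light chains of leucine, arginine and cystine exchange to the cell surface, was the second most abundant member. It stood at 38.3 CPM in protrusion 1, 127 CPM in protrusion 2, 158 CPM in protrusion 3 and 89.8 CPM in protrusion 4, against 31.0, 53.1, 54.8 and 77.1 CPM in open neural tubes 9, 10, 13 and 14. The 3 attached protrusions lay above all open neural tubes, and the separated one lay within their range. The share of all genes with this pattern was not computed. With all libraries the log2 fold change was 0.83 ± 0.41 (SE; edgeR adjusted p = 0.372). For the attached protrusions against open neural tube it was 1.10 ± 0.32 (SE; edgeR adjusted p = 0.0977). Neither passed the threshold, and over all settings the adjusted p ran from 0.0977 to 0.712. The other heavy chain, Slc3a1, which forms the kidney's cystine carrier with Slc7a9, did not exceed 2.40 CPM in the protrusions, against 6.02 CPM in open tubes. Slc7a9 itself had 0 tags in every library.

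The light chains differed from each other in how they were spread. Slc7a5, the leucine exchanger, stood at 10.1, 34.8, 39.7 and 21.2 CPM in protrusions 1 to 4, against 4.05, 42.0, 16.5 and 12.7 CPM in open neural tubes 9, 10, 13 and 14. Slc7a6, which exchanges arginine for glutamine, stood at 44.0 ± 7.47 CPM in the protrusions, against 31.5 ± 12.8 CPM in open tubes (SD, n = 4 per group). For both the groups overlapped, with log2 fold changes of 0.42 ± 0.65 and 0.39 ± 0.34 (SE), neither past the threshold in edgeR. Slc7a7, which shares the substrates of Slc7a6, stood at 3.11, 3.73, 33.6 and 4.69 CPM in protrusions 1 to 4, against 0, 0.176, 2.70 and 4.30 CPM in open neural tubes 9, 10, 13 and 14. As with Slc38a8, protrusion 3 was the highest library (log2 fold change 2.45 ± 1.46, SE; edgeR adjusted p = 0.487). Oxa1l, whose transcript overlaps its tag on the opposite strand, stood at 24.7 ± 3.39 CPM in the protrusions, against 34.8 ± 10.9 CPM in open tubes (SD, n = 4 per group).

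Slc7a10, a sodium-independent exchanger of small neutral amino acids known from brain and fat, was the member with the lowest fitted fold change. It stood at 32.6, 15.6, 9.97 and 19.95 CPM in protrusions 1 to 4, against 53.2, 36.3, 31.0 and 47.6 CPM in open neural tubes 9, 10, 13 and 14. The 3 attached protrusions lay below all open neural tubes, and the separated protrusion lay just above the lowest of them. For this pattern, too, the share of all genes was not computed. The log2 fold change was −1.18 ± 0.41 (SE; edgeR adjusted p = 0.194) with all protrusions and −1.55 ± 0.41 (adjusted p = 0.0816) with the attached ones, and no setting took it past the threshold (adjusted p from 0.0583 to 0.469). Lrp3, the receptor-like gene whose transcript covers its tag on the opposite strand, stood at 0.491 to 3.49 CPM in protrusions and had 0 tags in all 4 open neural tubes. The cystine exchanger Slc7a11 stood at 0 to 2.13 CPM in protrusions and had 0 tags in all 4 open neural tubes, while Slc7a8, the second leucine exchanger of this family, stayed at or below 2.28 CPM in the protrusions, against 1.58 CPM in open tubes.

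Set beside its partners, Slc3a2 had 0.964 ± 0.356 tags in protrusions and 0.603 ± 0.267 in open neural tube for each tag of the 6 light chains known to pair with it (SD, n = 4 per group). Without Slc7a7 and Slc7a10, whose counts are uncertain, the ratio was 1.36 ± 0.439 in protrusions and 1.21 ± 0.688 in open neural tube. The groups overlapped in both ratios, and no test was made. The ratio compares tag counts, and differences between genes in how well a tag is recovered enter it.

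**Figure D4:**
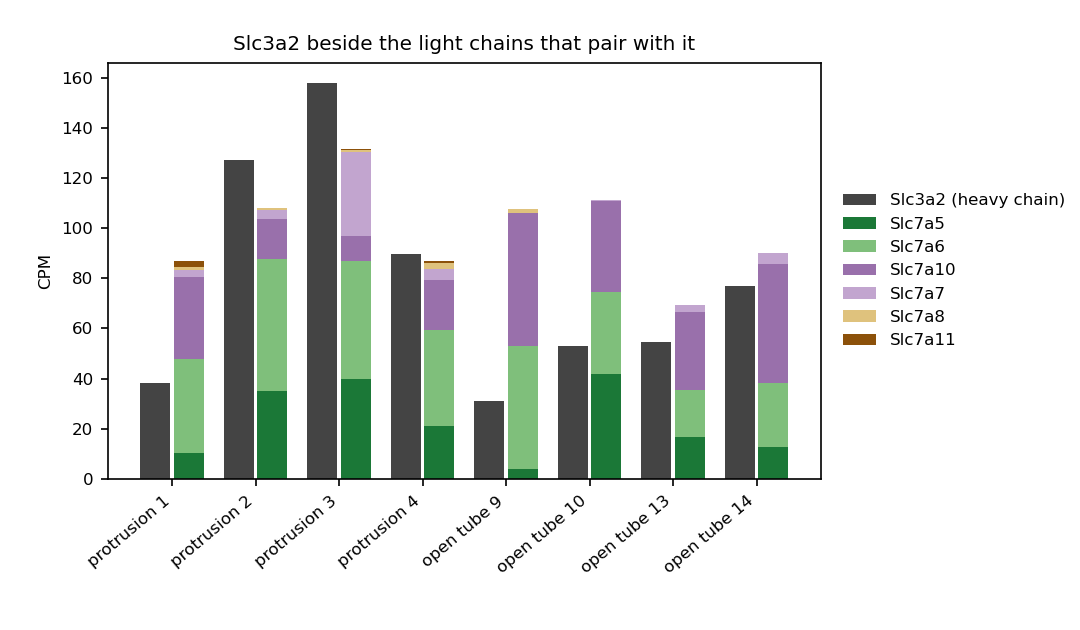
CPM of the heavy chain Slc3a2 (dark bars) beside the stacked CPM of the 6 light chains that pair with it, by library, protrusions at left. Slc3a2 exceeds the stack in protrusions 2, 3 and 4 and lies below it in protrusion 1 and in every open neural tube.

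Of the Slc1 family, the neutral carriers were present in every library, and the groups overlapped. Slc1a5, a glutamine exchanger of proliferating cells, stood at 26.4 ± 4.88 CPM in the protrusions, against 20.9 ± 9.20 CPM in open tubes, and Slc1a4, which carries serine and alanine, at 19.2 ± 8.41 CPM in the protrusions and 19.8 ± 7.13 CPM in open tubes (SD, n = 4 per group). Their log2 fold changes were 0.24 ± 0.38 and −0.14 ± 0.48 (SE; edgeR adjusted p = 0.836 and 0.936). The glutamate carriers were sparse: Slc1a3, the carrier of glia and radial glia, stood at 1.58 to 17.4 CPM in the protrusions, against 1.62 to 26.98 CPM in open tubes, and Slc1a2 and Slc1a6 did not exceed 7.69 CPM in the protrusions, against 8.29 CPM in open tubes. Slc1a1 and Slc1a7 stayed at or below 0.327 CPM in all libraries.

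Among the cationic carriers, Slc7a1, the general arginine and lysine carrier, was the most abundant, at 14.2 ± 1.80 CPM in the protrusions, against 20.7 ± 11.1 CPM in open tubes (SD, n = 4 per group; log2 fold change −0.62 ± 0.46, SE; edgeR adjusted p = 0.593). Slc7a3, an arginine carrier of embryonic and neural cells, stood at 1.68 to 10.8 CPM in the protrusions, against 0 to 3.55 CPM in open tubes. Slc7a2 and Slc7a4 had log2 fold changes of −0.75 ± 1.36 and 2.71 ± 1.71 (SE; edgeR adjusted p = 0.859 and 0.515), at levels up to 3.60 and 4.42 CPM in protrusions and 10.6 and 1.48 CPM in open neural tube. Of the proton-coupled carriers, the lysosomal Slc36a1 stood at 26.01, 27.2, 33.7 and 21.4 CPM in protrusions 1 to 4, against 25.7, 0, 32.1 and 22.1 CPM in open neural tubes 9, 10, 13 and 14. Its 0 in open neural tube 10, the library of the lowest total, allows up to 0.529 CPM by counting alone, which is below its level in each of the other 7 libraries.

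The facilitative carriers showed no member past the threshold. Slc43a1, a carrier of branched-chain amino acids, stood at 31.3 ± 11.9 CPM in the protrusions, against 32.7 ± 8.62 CPM in open tubes (SD, n = 4 per group; log2 fold change −0.17 ± 0.36, SE; edgeR adjusted p = 0.885). Slc43a2, with similar substrates, stood at 3.01 to 7.09 CPM in the protrusions, against 3.36 to 6.96 CPM in open neural tubes 9, 13 and 14 and 26.3 CPM in open neural tube 10. Slc43a3, which is known as a carrier of purine bases and not of amino acids, stood at 7.31 to 19.3 CPM in the protrusions, against 7.52 to 8.64 CPM in open neural tubes 9, 10 and 14 and 30.1 CPM in open neural tube 13. Slc7a6os, the symbol that is not a carrier, stood at 16.6 to 22.1 CPM in the protrusions, against 5.83 to 14.7 CPM in open tubes without overlap (log2 fold change 0.90 ± 0.49, SE; edgeR adjusted p = 0.440).

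Below a mean of 5 CPM lay 21 members, of which 14 did not reach the test. Slc36a3, Slc38a11, Slc7a9 and Slc7a12 had 0 tags in all 8 libraries. Of those not tested, Slc7a13 reached 7.76 CPM in open neural tube 10 and Slc7a14 6.92 CPM in open neural tube 14, each with 1.96 CPM or less in the protrusions, while Slc36a2 reached 3.94 CPM in open neural tube 14 and 0.818 CPM in the protrusions. After thinning to the same number of tags, 37, 32, 35 and 34 members had a tag in protrusions 1 to 4, against 28, 26, 26 and 25 in open neural tubes 9, 10, 13 and 14. Without thinning these counts were 37, 33, 37 and 35 in the protrusions against 28, 26, 26 and 26 in the open tubes. More members were thus seen in every protrusion, as was the case for all genes.

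By morphology label, the separated protrusion lay below all 3 attached ones in 10 of 29 tested members and above all 3 in 10, against 34.3% and 28.1% of all genes tested. Among those below were Slc3a2 and Slc7a5, at 0.306 and 0.318 of the mean of the attached protrusions, Slc1a4 at 0.325, Slc38a1 at 0.412 and Slc38a8 at 0.106. Among those above were Slc7a10 at 2.14 and Slc43a3 at 1.68 times that mean. The separated protrusion also stood apart in summed markers. Those of the primitive streak and axial progenitors were at 284 CPM in it, against 838 to 1256 CPM in the attached protrusions, and those of paraxial mesoderm at 642 CPM against 1050.3 to 1459 CPM in the attached ones. Neural progenitor markers were at 1067 CPM in it, against 386 to 591 CPM in the attached protrusions, and endothelial markers at 41.7 CPM against 4.37 to 7.21 CPM in the attached ones. The part of these markers in the values of the transporters was not tested. With a single separated protrusion there is no replicate behind these values, and no test was made.

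In 5 lists of genes around the carriers, edgeR called a single gene, where it called 0.607% of all genes tested. Of 29 tested genes of amino acid sensing and mTORC1 activation, 1 fell and 0 rose, with a median log2 fold change of 0.06. It was Mapksp1 (now Lamtor3), a subunit of the scaffold that holds mTORC1's activators on the lysosome. Mapksp1 stood at 114, 115, 87.6 and 121 CPM in protrusions 1 to 4, against 212, 206, 217 and 210.1 CPM in open neural tubes 9, 10, 13 and 14. All protrusions lay below all open neural tubes, with a log2 fold change of −1.03 ± 0.19 (SE; edgeR adjusted p = 0.0450). Its call ended in 12 of 19 alternatives, among them the omission of any library other than protrusion 1 (edgeR, DESeq2 and limma adjusted p from 5.57e-05 to 0.146 over all settings). Every protrusion lay below every open neural tube in 4 tested genes of the list, Mapksp1, Rheb, Rraga and Mios, against 4.55% of all genes tested. Every protrusion lay above in 3, Mtor, Rragd and Gatsl3, against 8.84%. At an unadjusted p under 0.05 in edgeR stood 3 genes of the list, against 15.3% of all genes tested. Sec13, the most abundant gene of the list and also a coat protein, stood at 497 ± 136 CPM in the protrusions, against 644 ± 132 CPM in open tubes (SD, n = 4 per group).

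Of 25 tested enzymes of amino acid synthesis and breakdown, edgeR called 0, with 5 at an unadjusted p under 0.05, 3 called by DESeq2 (Oat, Asl and Gldc), 1 by limma-voom (Gldc) and 0 with sample weights. Over all genes these shares were 15.3% at an unadjusted p under 0.05, 7.39% with DESeq2 and 3.35% with limma-voom, and the enzymes' counts lie near them. The median log2 fold change was 0.24. Gldc, the decarboxylase of the glycine cleavage system, stood at 9.82, 14.8, 21.1 and 14.1 CPM in protrusions 1 to 4, against 0.889, 0.706, 0 and 1.31 CPM in open neural tubes 9, 10, 13 and 14 (log2 fold change 4.26 ± 1.15, SE; edgeR adjusted p = 0.0942). Oat, which links ornithine to proline and glutamate, stood at 26.01, 43.6, 326 and 69.6 CPM in protrusions 1 to 4, against 3.85, 29.3, 14.5 and 10.98 CPM in open neural tubes 9, 10, 13 and 14, with protrusion 3 again the highest library (2.85 ± 0.81; edgeR adjusted p = 0.107). Odc1, the entry enzyme of polyamine synthesis and the most abundant of the list, stood at 1169 ± 409 CPM in the protrusions, against 1491 ± 247 CPM in open tubes (SD, n = 4 per group).

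In the integrated stress response, the pathway by which cells short of amino acids induce several carriers, edgeR called 0 of 16 tested genes. At an unadjusted p under 0.05 stood 1 of them, against 15.3% of all genes tested. DESeq2, limma-voom and limma-voom with sample weights each called 0 (median log2 fold change −0.02). Eif2ak1 and Eif2ak2, kinases that start the response, had log2 fold changes of 0.78 ± 0.28 and −1.07 ± 0.51 (SE; edgeR adjusted p = 0.206 and 0.358). Asns, asparagine synthetase and the most abundant of the list, stood at 231 ± 62.2 CPM in the protrusions, against 214 ± 31.4 CPM in open tubes (SD, n = 4 per group). Atf4, the factor that induces Slc3a2 and Slc7a11 in cultured cells, stood at 13.9, 53.2, 54.0 and 48.0 CPM in protrusions 1 to 4, against 6.91, 18.9, 22.8 and 0 CPM in open neural tubes 9, 10, 13 and 14 (1.71 ± 1.03; edgeR adjusted p = 0.491; chosen after its values were seen). For Atf4 the 3 attached protrusions lay above all open neural tubes. The share of all genes with this pattern was not computed, and a link between Atf4 and Slc3a2 was not tested.

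Of 7 tested genes of glutathione synthesis and cystine use, edgeR called 0, with 1 at an unadjusted p under 0.05, against 15.3% of all genes tested. DESeq2, limma-voom and limma-voom with sample weights each called 0 (median log2 fold change 0.28). Gclm, the modifier subunit of the enzyme that starts glutathione synthesis, had a log2 fold change of 2.47 ± 1.04 and Gsr, glutathione reductase, of 0.57 ± 0.28 (SE; edgeR adjusted p = 0.286 and 0.371). Txnrd1, the thioredoxin reductase, was the most abundant, at 732 ± 97.97 CPM in the protrusions, against 741 ± 77.4 CPM in open tubes (SD, n = 4 per group). Of 10 tested amino acid carriers outside the member families, edgeR called 0, with 1 at an unadjusted p under 0.05, again against 15.3%. The other tools called 0 (median log2 fold change 0.05). Slc6a15, a neutral amino acid carrier of the nervous system, had a log2 fold change of 3.60 ± 1.61 and the mitochondrial aspartate carrier Slc25a13, the most abundant, of 0.34 ± 0.25 (SE; edgeR adjusted p = 0.321 and 0.591).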

How the data were processed

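Whole-number SAGE tag counts per gene symbol were used as the authors deposited them in 8 files, with no normalization, per the file headers. The labels' protocols state laser microdissection and SOLiD SAGE libraries from nanogram amounts of RNA. The submitters' processing notes name build mm9. For the mapping program, the tag-to-gene rule and strand: not given in the sources used here. Tags without molecular identifiers include PCR copies, so intervals and floors (3 tags) cover counting error only. CPM was computed from the counts. All 11036 genes that passed filterByExpr (minimum count 10) were fitted in R 4.3.3 with edgeR 4.0.16, TMM factors and robust quasi-likelihood tests (2-sided), adjusted by the Benjamini-Hochberg method over all of them and a threshold of 0.05. SEs derive from the F statistic. The script was tested on simulated data, with 50 genes changed at each size. It called 4% of those changed 2-fold, 46% at 4-fold and 64% at 16-fold, so a gene not called may still differ. Overlap between groups was judged on CPM. Tags and overlaps come from GENCODE M21 (GRCm38), and no coordinate was compared with the files. Of the listed symbols, 7 were found under an older name through the RefSeq table. Groups come from the source names, open neural tube numbers from titles and protrusion numbers from the order of listing. The members, lists, tests and the rule for named genes were chosen with earlier results of these data known. Named in every library were members past the threshold, at an unadjusted p under 0.05 or with a mean of at least 50 CPM, and from lists up to 4 genes past the threshold, otherwise the 2 of smallest p, with the most abundant. Some others are given by library where the groups or 1 library stood apart. Alternatives were other scaling factors, other filters, DESeq2 1.42.0, limma 3.58.1 voom without and with sample weights, no robust estimation and each library left out. Added after seeing the data were thinning to the smallest total and leaving out protrusion 1 and open neural tube 13 together.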

Additional observations from a re-analysis of the deposited data

Results flagged for a closer look

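In groups of 4 libraries, 8 values of 43 groups examined (22 members with a mean of at least 5 CPM) stood farther from the rest than Dixon's 95% critical gap for 4 values. For values drawn from a normal distribution, chance flags about 1 group in 20, and CPM was used here without logs. The step was not run on all genes, so no share over all genes stands beside the 8 flags. They cannot be read as an excess in these members. Slc38a8 in the open neural tubes, with a single tag in all, was not examined, because 1 tag beside zeros fixes the outcome. In protrusions, Slc38a8 at 96.5 CPM and Slc7a7 at 33.6 CPM were far above the others in protrusion 3, and Slc7a6os at 22.1 CPM in protrusion 1. In open neural tube 13, Slc38a4 at 152 CPM and Slc43a3 at 30.1 CPM were far above the others. In open neural tube 10, Slc43a2 at 26.3 CPM and Slc38a5 at 28.4 CPM stood apart. In open neural tube 9 it was Slc1a5 at 34.6 CPM. What sets these libraries apart was not tested.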

How the results depend on the processing

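Of all genes tested 67 passed, and the count was 103 with upper-quartile factors, 133 with a filter of 20 CPM in 4 libraries, 795 with DESeq2, 370 with limma-voom, 194 with sample weights, 211 without protrusion 1 and open neural tube 13, and 1 to 172 with each library left out. The count of members past the threshold was 1, and 0 with sample weights, 0 with the filter of 20 CPM, in which Slc38a8 was not among the genes tested, and 0 to 1 with each library left out. Slc38a8 kept its direction in all 18 alternatives that tested it and lost its call in 7. Slc3a2 and Slc7a10 kept their direction and stayed short of the threshold in all 19, and Mapksp1 kept its direction in all 19. With sample weights the log2 fold change of Slc38a2 turned to 0.0445 and that of Slc38a4 to 0.218, and that of Slc38a4 was 0.75 without protrusion 1 and open neural tube 13. With each library left out, the log2 fold change ran from −0.0451 to 0.30 for Slc38a10, from −0.30 to 0.0306 for Slc38a1, from −0.35 to 0.0488 for Slc38a2 and from −0.73 to 0.64 for Slc38a4. The cause of these changes was not tested. The median log2 fold change of all genes moved by 0.393 with no low-count filter, 0.279 with limma-voom and 0.272 with sample weights. No paired analysis was made, because the embryo behind each library is not stated. Protrusion numbers follow the order of listing and cannot show whether libraries of the groups belong together. The SE of Slc3a2 (0.41) was larger than that of Mapksp1 (0.19), which was called at a log2 fold change of similar size.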

Other observations

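Of the 29 tested members, 8 were highest in protrusion 3 and 6 in open neural tube 10, which is 27.6% and 20.7% of them, against 21.5% and 18.8% of all genes tested. The other 6 libraries were each the highest for 1 to 4 members. In the library of open neural tube 10, Slc38a2 at 118 CPM, Slc7a5 at 42.0 CPM, Slc43a2 at 26.3 CPM and Slc38a5 at 28.4 CPM were the highest of all 8 libraries, while Slc36a1, Slc3a1 and Slc7a3 had 0 tags there. No explanation was tested.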
